A study of Mus musculus with 16 samples.

Results

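Interferon-stimulated genes are the genes that a cell switches on when interferon or foreign nucleic acid is sensed. A list of 42 such mouse genes was followed through 16 RNA-seq libraries of AML246 cells, and 37 of the 42, out of 13652 genes with read counts, were analysed. The members were taken by gene symbol from the list. Ifit3, Mx1, Mx2, Ifi44 and Rtp4 were not found by symbol among the genes with read counts, so they were not analysed.

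AML246 is a mouse acute myeloid leukaemia culture grown in medium with interleukin-3. Doxycycline at 0.1 µg/mL was added at day 0 and taken away at day 12, and the series title links the schedule to PU.1 being restored and then knocked down. PU.1 is a transcription factor of myeloid cells and the product of Spi1. The 8 groups of 2 libraries, replicates A and B, were taken before doxycycline (day 0), at 4, 8 and 12 days on it, at day 12 again as a Cd11b-high sort, and at 4, 8 and 12 days off it (days 16, 20 and 24 of the course). All groups were sorted viable cells of the 1 culture line, and apart from the Cd11b-high sort the whole viable population was taken. No untreated group was taken at days 4, 8 or 12, so time on doxycycline and time in culture cannot be told apart. The labels name no allele, promoter or number of separate cultures, and the p-values rest on the spread between libraries, which may be technical. Library depth ran from 12962801 to 26509803 reads in genes.

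In the classical pathway the RNA helicases RIG-I and MDA5, the cytosolic DNA sensors and the endosomal Toll-like receptors detect nucleic acid and lead to interferon secretion. Type I interferons bind a receptor made of the chains Ifnar1 and Ifnar2, and the kinases Jak1 and Tyk2 then lead to the complex ISGF3, which holds Stat2 and Irf9. ISGF3 binds the interferon-stimulated response element (ISRE) in promoters. Myeloid cells keep part of this programme on without infection, and PU.1 itself can bind a related composite element (EICE) together with Irf4 or Irf8. Neither Irf4 nor Irf8 was found by symbol among the genes with read counts here.

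Some members carry these elements close to the start site, and 7 stretches, chosen from those with matches, show how they are laid out. The windows of Ifitm1, Irf7 and Xaf1 held no match to either element. They are printed 5′ to 3′ on the strand of the gene, from RefSeq on GRCm38.p6. Capitals mark matches to the ISRE letters (GAAA, any 2 bases, GAAA), on either strand, in the first 6 and matches to the EICE letters (GGAA, any 2 bases, GAAA), on either strand, in Ifitm6; capitals that begin with T are matches on the opposite strand. Isg15 lies at chr4:156200849-156200928, Ifit1 at chr19:34640759-34640838, Oas1a at chr5:120907526-120907595, Oas3 at chr5:120777690-120777769, Rsad2 at chr12:26456523-26456602, Bst2 at chr8:71537553-71537632 and Ifitm6 at chr7:141017063-141017142. All but Ifit1 are on the minus strand.
Isg15: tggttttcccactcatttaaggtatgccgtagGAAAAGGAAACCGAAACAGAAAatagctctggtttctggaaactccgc
Ifit1: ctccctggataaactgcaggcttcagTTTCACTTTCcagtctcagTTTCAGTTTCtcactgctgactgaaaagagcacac
Oas1a: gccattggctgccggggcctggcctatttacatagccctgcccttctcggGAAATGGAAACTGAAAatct
Oas3: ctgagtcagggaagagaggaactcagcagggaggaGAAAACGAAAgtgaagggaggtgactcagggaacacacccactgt
Rsad2: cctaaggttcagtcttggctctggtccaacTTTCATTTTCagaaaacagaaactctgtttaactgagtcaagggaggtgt
Bst2: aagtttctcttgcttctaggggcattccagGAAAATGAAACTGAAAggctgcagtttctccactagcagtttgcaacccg
Ifitm6: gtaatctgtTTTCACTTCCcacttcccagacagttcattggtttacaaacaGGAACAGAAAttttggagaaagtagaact

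Isg15 holds 3 overlapping ISRE matches in a row, and Ifit1, Oas1a and Bst2 hold 2 each. Of the 37 members, 31 matched the promoter table, with 37 windows of 300 bases (250 before to 50 after the start), and 13 of those windows (35.1%) held the ISRE letters against 3.44% of all 32851 windows. The EICE letters were in 13.5% of member windows against 2.72% of all windows. The PU.1 letters GAGGAAGT were in 5.41% of member windows against 3.2% of all windows. Also searched was the GAS motif (TTC, any 3 bases, GAA), found in 32.4% of member windows against 8.3% of all windows. Both strands were searched, and matches of different motifs may overlap. Members with ISRE letters moved in different directions: Isg15 rose and Bst2 fell at day 4. A match is a run of letters and not a shown binding site.

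Spi1 itself followed the schedule. It stood at 229 and 248 CPM (read counts scaled to the TMM-normalised library size) at day 4, against 66.3 and 56.8 CPM at day 0, and at 226 and 219 CPM at day 12. At 4 days off it was 65.0 and 56.6 CPM. The culture had the markers of a myeloid population in every library: 6 monocyte and macrophage markers summed to between 793 and 1510 CPM, while 3 T and NK cell markers summed to between 4.64 and 28.8 CPM and 2 B cell markers to between 1.3 and 4.2 CPM. Other myeloid markers moved with the schedule. The 8 neutrophil markers, such as the calprotectin chain S100a8, summed to 13.8 and 24.0 CPM at day 0, 2850 and 2230 CPM at day 4, 978 and 861 CPM at day 8 and 628 and 608 CPM at day 12. The 6 eosinophil markers, led by the granule peroxidase Epx, summed to 5170 and 2080 CPM at day 0, 202 and 240 CPM at day 4, 2910 and 3270 CPM at day 8 and 7950 and 8890 CPM at day 12. In these bulk libraries fewer cells of a type and less RNA per cell cannot be told apart.

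**Figure D1:**
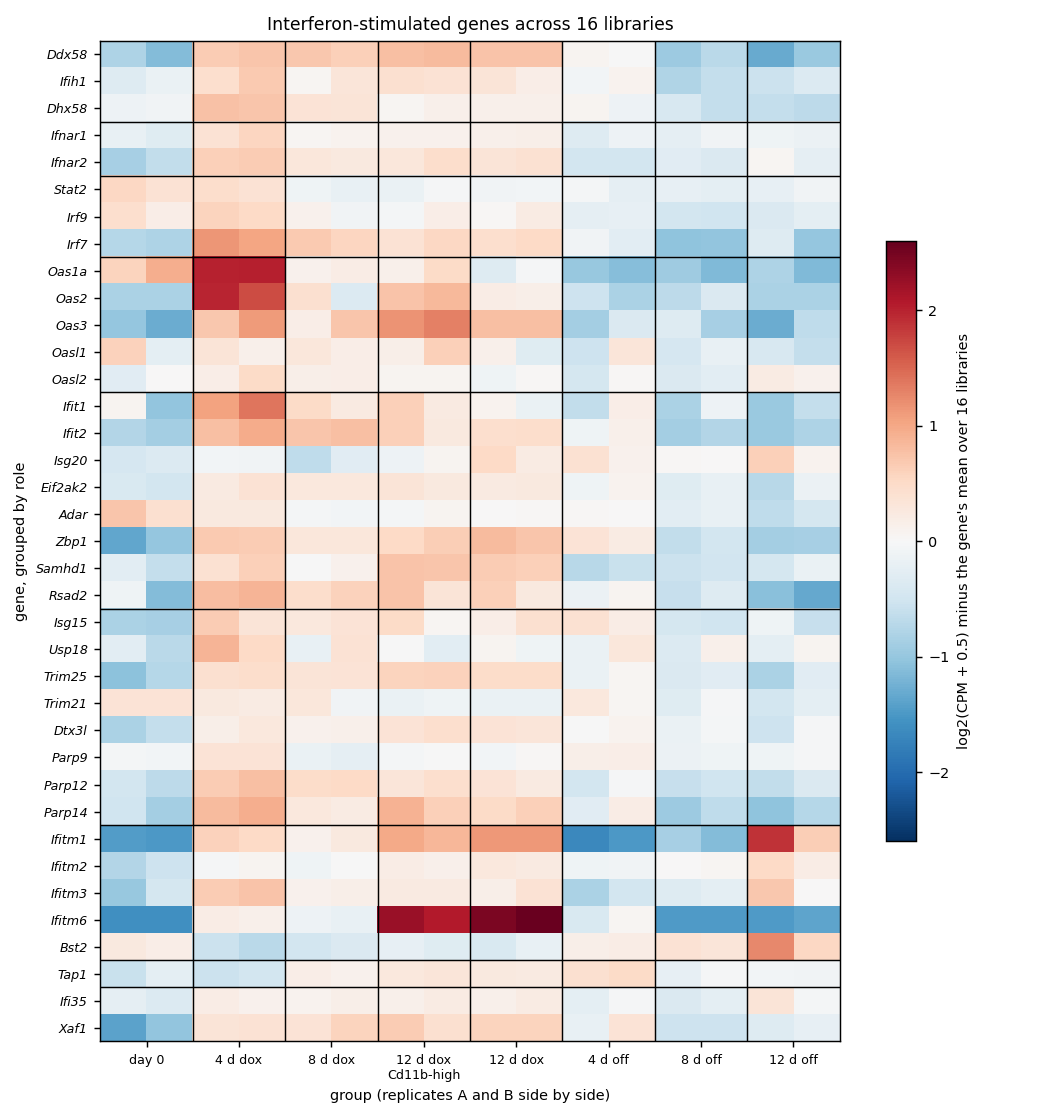
Level of the 37 interferon-stimulated genes (rows, grouped by role) in each of 16 libraries (columns, replicates A and B side by side), as log2(CPM + 0.5) minus the gene's mean over the libraries, red above and blue below that mean. Most rows are red from 4 to 12 days of doxycycline and blue at day 0 and 8 days off. Oas1a and Oas2 are darkest at day 4, Ifitm6 at day 12, and Ifitm1 and Bst2 in replicate A at 12 days off.

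Within 4 days of doxycycline most of the interferon-stimulated genes were higher than in untreated cells. Of the 37 members, 29 rose and 2 fell at day 4 against day 0 (edgeR quasi-likelihood test, Benjamini-Hochberg adjusted p under 0.05 over all genes), while over all genes 28.2% rose and 31% fell. The members' median log2 fold was 1.32, against -0.05 for all genes. The risers included RNA sensors, both receptor chains, Irf7 and antiviral effectors, and the fallers were Bst2 (tetherin), which holds budding virions at the cell surface, and Adar, which edits double-stranded RNA. The deposited tables keep genes over 0.5 CPM in at least 3 libraries, so a member silent before doxycycline could enter only through groups where it was high, and these counts are a description of the 37. Where groups are said below not to overlap, 2 libraries stand against 2, and the share of all genes that did so was not counted.

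The RNA sensors rose together. Ddx58, which encodes the sensor RIG-I, had 90 and 93.8 CPM at day 4, against 32.2 and 25.7 CPM at day 0. Both day 4 libraries lay far above both day 0 libraries, and its log2 fold was 1.66 (SE 0.13, with edgeR adjusted p = 8.7e-08). Ifih1, which encodes MDA5, had 19.1 and 23 CPM at day 4, against 11.1 and 12.4 CPM at day 0, with no overlap (log2 fold 0.85, SE 0.15, with edgeR adjusted p = 0.00021). Dhx58, the helicase LGP2 that modulates both, had 20.9 and 20.4 CPM at day 4, against 11.1 and 11.4 CPM at day 0 (log2 fold 0.88, SE 0.13, with edgeR adjusted p = 3.3e-05), again with the groups apart. Zbp1, a sensor of Z-form nucleic acid that can start necroptosis, had 7.95 and 7.86 CPM at day 4, against 1.58 and 2.14 CPM at day 0. That was a log2 fold of 2.11 (SE 0.19, with edgeR adjusted p = 2.5e-07).

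Both chains of the type I interferon receptor were higher at day 4. Ifnar2 had 59.2 and 61.1 CPM at day 4, against 21.1 and 24.7 CPM at day 0 (log2 fold 1.40, SE 0.12, with edgeR adjusted p = 1.7e-07). The smaller step was in Ifnar1, with 63.9 and 72.5 CPM at day 4, against 42.6 and 39.0 CPM at day 0 (log2 fold 0.74, SE 0.11, with edgeR adjusted p = 3.1e-05). Neither chain's groups overlapped.

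The transcription factors of the response did not move alike. Irf7, the factor that amplifies interferon gene transcription, had 26.2 and 24.3 CPM at day 4, against 6.79 and 6.49 CPM at day 0 (log2 fold 1.92, SE 0.19, with edgeR adjusted p = 5.8e-07). Stat2, an ISGF3 subunit, had 248 and 235 CPM at day 4, against 263 and 235 CPM at day 0, and the groups overlapped (log2 fold -0.04, SE 0.11, with edgeR adjusted p = 0.74). Irf9, the DNA-binding subunit of ISGF3, had 29.6 and 28.5 CPM at day 4, against 26.7 and 22.3 CPM at day 0. Its day 4 libraries lay above those of day 0 by a log2 fold of 0.24 (SE 0.13), which did not pass the test (edgeR adjusted p = 0.12).

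Among the OAS enzymes, which make the messenger that activates RNase L, Oas2 and Oas3 came up from near zero. Oas2 had 2.96 and 2.34 CPM at day 4 (135 reads over the group) and 0 reads in both day 0 libraries, so it was at least 28.3-fold higher, with 3 reads over the group as the floor. Oas3 had 1.5 and 2.14 CPM at day 4, against 0.109 and 0 CPM at day 0. With 92 reads against 2, the ratio was 28.9, with an exact 95% counting interval of 7.78 to 242. The fitted log2 fold of Oas3, 4.73, depended on the day 0 library used, at 8.2 with replicate A left out, which leaves day 0 with 0 reads, and 3.99 with B left out. Oas1a was present before doxycycline, and had 4.38 and 4.4 CPM at day 4, against 1.3 and 1.84 CPM at day 0 (log2 fold 1.5, SE 0.29, with edgeR adjusted p = 0.00045). The paralogue Oasl2 rose by a log2 fold of 0.53 (SE 0.21, with edgeR adjusted p = 0.037), a call lost without day 0 replicate A (log2 fold 0.36, edgeR adjusted p = 0.25), and Oasl1 (log2 fold -0.06, edgeR adjusted p = 0.92) did not pass the test. Oas2 and Oas3 lie outside the naming rule, which asks for a mean of 1 CPM in called members, and were chosen after their values were seen.

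Among the other antiviral effectors the IFIT proteins, which bind foreign RNA caps, and viperin rose. Ifit2 had 14.1 and 16.2 CPM at day 4, against 4.51 and 4.13 CPM at day 0 (log2 fold 1.80, SE 0.17, with edgeR adjusted p = 5.1e-07). Ifit1 had 2.53 and 3.31 CPM at day 4, against 1.03 and 0.221 CPM at day 0 (log2 fold 2.10, SE 0.49, with edgeR adjusted p = 0.0019), a value that depended on the day 0 library used, at 3.68 with replicate A left out and 1.49 with B left out. Rsad2, which encodes viperin, had 3.92 and 4.15 CPM at day 4, against 1.85 and 0.664 CPM at day 0 (log2 fold 1.61, SE 0.33, with edgeR adjusted p = 0.00066), and the log2 fold was 2.59 without day 0 replicate A. In all 3 genes both day 4 libraries lay above both day 0 libraries. Eif2ak2, the double-stranded RNA kinase PKR, rose by a log2 fold of 0.75 (SE 0.15, with edgeR adjusted p = 0.00041), and Samhd1, which depletes the nucleotides that viruses need, by 0.95 (SE 0.14, with edgeR adjusted p = 2.8e-05). Isg20, an RNA exonuclease, was at a log2 fold of 0.35 and did not pass the test (edgeR adjusted p = 0.18).

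The ubiquitin-like modifier Isg15 had 5.15 and 4.03 CPM at day 4, against 1.52 and 1.48 CPM at day 0, with the groups well apart (log2 fold 1.61, SE 0.26, with edgeR adjusted p = 9.9e-05). Usp18, which removes Isg15 from proteins and restrains receptor signalling, had 2.57 and 1.86 CPM at day 4, against 0.87 and 0.516 CPM at day 0 (log2 fold 1.63, SE 0.39, with edgeR adjusted p = 0.0022). Trim25, a ubiquitin ligase of the RIG-I pathway, had 172 and 178 CPM at day 4, against 61.6 and 76.3 CPM at day 0 (log2 fold 1.34, SE 0.15, with edgeR adjusted p = 2.3e-06). The ADP-ribosyltransferase genes Parp14 (log2 fold 1.62), Parp12 (1.32) and Parp9 (0.42) rose with Dtx3l (0.95), the ligase partner of Parp9, with edgeR adjusted p between 3.5e-06 and 0.0024. Xaf1, an apoptosis factor, had 16.9 and 17.5 CPM at day 4, against 4.78 and 6.27 CPM at day 0 (log2 fold 1.65, SE 0.19, with edgeR adjusted p = 3.2e-06). Ifi35 rose by 0.44 (edgeR adjusted p = 0.0078), a call lost without day 0 replicate B (edgeR adjusted p = 0.06). Trim21, a cytosolic antibody receptor, was at a log2 fold of -0.12 (edgeR adjusted p = 0.48).

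The IFITM genes encode small membrane proteins that stop viruses from fusing, and all 4 measured ones rose. Ifitm1 had 204 and 192 CPM at day 4, against 49.2 and 47.5 CPM at day 0 (log2 fold 2.03, SE 0.27, with edgeR adjusted p = 2.4e-05). Ifitm3 had 21.0 and 22.3 CPM at day 4, against 6.41 and 9.52 CPM at day 0 (log2 fold 1.46, SE 0.22, with edgeR adjusted p = 4.4e-05). Ifitm2 rose less, with 226 and 242 CPM at day 4, against 137 and 159 CPM at day 0 (log2 fold 0.66, SE 0.12, with edgeR adjusted p = 0.00017). None of these day 4 libraries overlapped the day 0 libraries. Ifitm6 had 1.23 and 1.17 CPM at day 4 and 0 reads at day 0, at least 12.8-fold higher. Bst2 went the other way, with 33.2 and 30.0 CPM at day 4, against 58.9 and 55.0 CPM at day 0 (log2 fold -0.85, SE 0.17, with edgeR adjusted p = 0.00054). Adar had 104 and 105 CPM at day 4, against 144 and 117 CPM at day 0 (log2 fold -0.32, SE 0.11, with edgeR adjusted p = 0.022), and this call was lost without day 0 replicate A (edgeR adjusted p = 0.28). Without that library, or without either day 4 library, 1 member was called lower in place of 2. Tap1, the peptide transporter of antigen presentation, was at a log2 fold of -0.11 (edgeR adjusted p = 0.41). Leaving out each of the 4 libraries in turn, 27 of the 29 rises were called every time. Beside these rises stand the neutrophil markers, of which 8 of 8 rose (median log2 fold 6.88, over all genes 28.2% rose). Of the basophil and mast cell markers, 4 of 5 fell (median -2.21, over all genes 31% fell). The part of both marker lists in the members' values was not tested.

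The genes around the members moved in the same period, in which 28.2% of all genes rose and 31% fell. Of 21 sensors and adaptors outside the member list, 14 rose and 0 fell at day 4 against day 0 (edgeR, and 0 fell at an unadjusted p under 0.05), among them the endosomal RNA receptor Tlr7 (log2 fold 2.57, edgeR adjusted p = 2.2e-07), its adaptor Myd88 (1.09, edgeR adjusted p = 4e-07) and the factor Irf5 (3.81, edgeR adjusted p = 7.8e-07). Of 19 receptor, kinase, STAT and feedback genes, 15 rose and 1 fell. The receptor kinase gene Jak1 had 344 and 418 CPM at day 4, against 116 and 108 CPM at day 0 (log2 fold 1.77, SE 0.13, with edgeR adjusted p = 3.8e-08). A further 54 genes of the type I response held 30 rises and 8 falls (median log2 fold 0.60), led by Ifi27l2a, a small mitochondrial interferon-induced protein, at 42.1 and 30.2 CPM at day 4, against 2.83 and 2.51 CPM at day 0. Among 15 GTPases, chemokines and other genes of the interferon-gamma response, 9 rose and 3 fell, and Gbp4 was at a log2 fold of 2.15 (edgeR adjusted p = 0.00011). Of 25 genes of MHC class I antigen presentation, 15 rose and 3 fell (median log2 fold 0.45). None of the 20 interferon genes on the ligand list was found by symbol among the genes with read counts. The level of the inducing cytokines was therefore not measured.

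After day 4 the members parted ways. Against day 4, 1 member rose and 10 fell at day 8 (over all genes 6.78% rose and 7.16% fell), and 2 rose and 13 fell at day 12 (over all genes 14.7% and 12.3%). The median log2 fold was -0.36 at day 8 and -0.31 at day 12, against 0.00 and -0.01 for all genes. The OAS genes Oas1a and Oas2 and the ISGF3 subunits Stat2 and Irf9 were among those that fell, and Tap1 and Ifitm6 were those that rose. Ddx58 was not called at either time. Of the 37 members, 24 had their highest doxycycline mean at day 4, 0 at day 8 and 13 at day 12, while over all genes the shares were 39.7%, 24.3% and 36%. With library size alone in place of TMM, the split over all genes was 749 higher and 1201 lower at day 8 (926 and 977 with TMM) and 1272 higher and 2797 lower at day 12 (2006 and 1681 with TMM). The comparisons of day 8 and of day 12 share the day 4 libraries. Against day 0, 25 members were higher and 3 lower at day 8 (over all genes 27% and 30.2%), and 25 were higher and 5 lower at day 12 (30% and 33.4%), the 5 being Oas1a, Stat2, Trim21, Adar and Bst2.

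**Figure D2:**
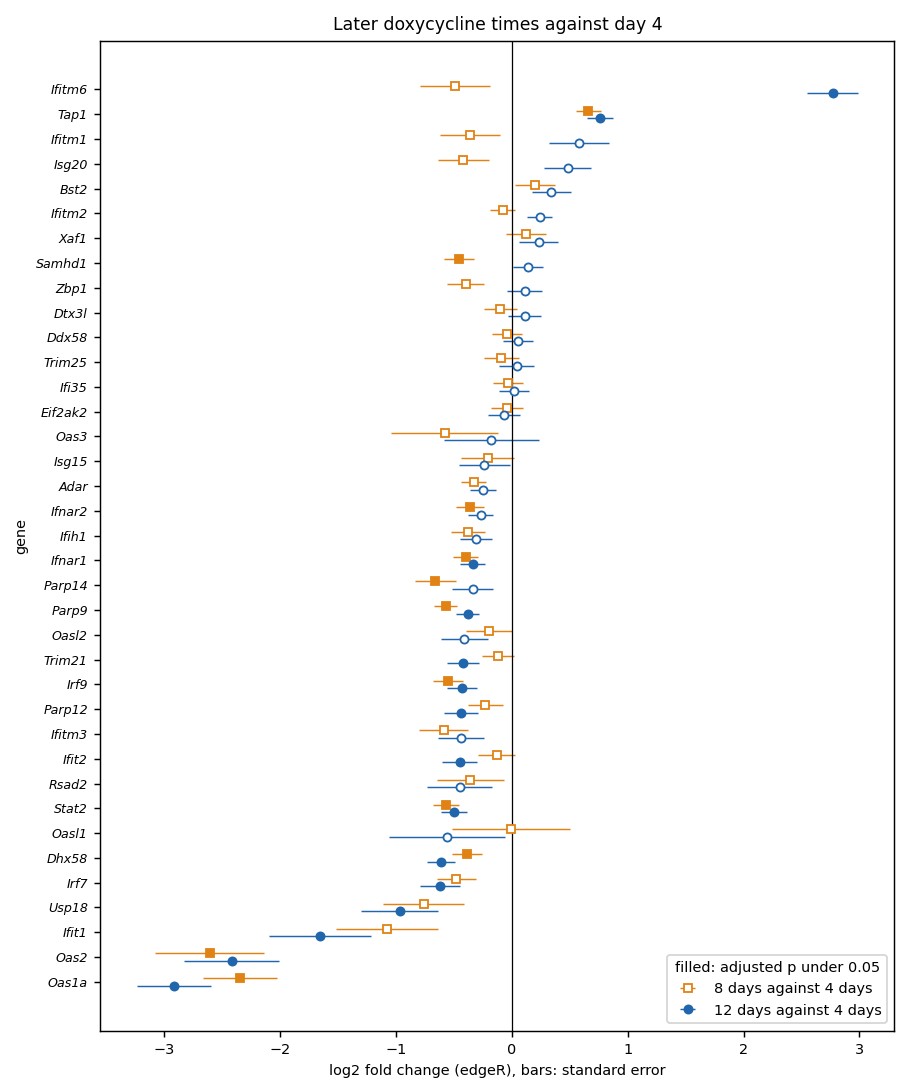
Log2 fold change (x axis, edgeR) of the 37 members (y axis) at 8 days (squares) and 12 days (circles) of doxycycline against 4 days, with bars for 1 standard error and filled symbols for adjusted p under 0.05. Oas1a and Oas2 lie below -2 at both times, most members lie between -1 and 0.5, and Ifitm6 at 12 days and Tap1 at both times lie to the right of 0.

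Oas1a had 0.811 and 0.893 CPM at day 8 and 0.456 and 0.679 CPM at day 12, against 4.38 and 4.4 CPM at day 4. Its day 8 and day 12 libraries lay below those of day 0 too. The log2 fold against day 4 was -2.35 at day 8 (SE 0.32, with edgeR adjusted p = 0.00027) and -2.92 at day 12 (SE 0.32, with edgeR adjusted p = 1.6e-05). Oas2 had 0.676 and 0.191 CPM at day 8 and 0.502 and 0.48 CPM at day 12, against 2.96 and 2.34 CPM at day 4. The log2 fold was -2.61 at day 8 (SE 0.47, with edgeR adjusted p = 0.0028) and -2.42 at day 12 (SE 0.41, with edgeR adjusted p = 0.001). At day 8 the value was -3.75 with day 8 replicate A left out, and with B left out it was -1.96 and not called (edgeR adjusted p = 0.054). Oas3 did not pass the test at either time: it had 0.878 and 1.53 CPM at day 8 and 1.6 and 1.6 CPM at day 12, against 1.5 and 2.14 CPM at day 4.

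The ISGF3 genes came down after day 4. Stat2 had 168 and 158 CPM at day 8 and 169 and 173 CPM at day 12, against 248 and 235 CPM at day 4. None of the later libraries reached the day 0 or day 4 range, and the log2 fold against day 4 was -0.57 at day 8 (SE 0.11, with edgeR adjusted p = 0.0027) and -0.50 at day 12 (SE 0.11, with edgeR adjusted p = 0.0031). Irf9 had 21.4 and 18.4 CPM at day 8 and 20.1 and 23 CPM at day 12, against 29.6 and 28.5 CPM at day 4 (log2 fold -0.55, edgeR adjusted p = 0.012, and -0.43, edgeR adjusted p = 0.023). Irf7 had 19.0 and 17.3 CPM at day 8 and 16 and 16.9 CPM at day 12, against 26.2 and 24.3 CPM at day 4, and its log2 fold was -0.48 at day 8 (edgeR adjusted p = 0.079) and -0.62 at day 12 (SE 0.17, with edgeR adjusted p = 0.015). At both times Irf7 still lay well above its 6.79 and 6.49 CPM at day 0.

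Falls were also called in the receptor chain Ifnar1, the helicase Dhx58 and several effectors. Ifnar1 was at a log2 fold of -0.40 at day 8 (edgeR adjusted p = 0.021) and -0.34 at day 12 (edgeR adjusted p = 0.026). Dhx58 was at -0.39 at day 8 (edgeR adjusted p = 0.048) and -0.61 at day 12 (edgeR adjusted p = 0.0025), and Parp9 at -0.57 (edgeR adjusted p = 0.0021) and -0.38 (edgeR adjusted p = 0.011). Parp14 (log2 fold -0.66, edgeR adjusted p = 0.025), Samhd1 (-0.46, edgeR adjusted p = 0.033) and Ifnar2 (-0.36, edgeR adjusted p = 0.049) were called lower at day 8 but not at day 12, where Samhd1 stood at 0.14. Ifit1 (-1.66, edgeR adjusted p = 0.012), Usp18 (-0.97, edgeR adjusted p = 0.044), Ifit2 (-0.45, edgeR adjusted p = 0.042), Parp12 (-0.44, edgeR adjusted p = 0.037) and Trim21 (-0.42, edgeR adjusted p = 0.042) were called lower at day 12 but not at day 8. Between day 12 and day 8 themselves, 3 members rose and 0 fell (edgeR, over all genes 1.82% and 0.425%, and 0 members fell at an unadjusted p under 0.05): Ifitm6, Isg20 and Samhd1, the last by a log2 fold of 0.59 (edgeR adjusted p = 0.029).

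Tap1 took the opposite course. It had 211 and 202 CPM at day 8 and 224 and 221 CPM at day 12, against 128 and 135 CPM at day 4 (log2 fold 0.66, SE 0.11, with edgeR adjusted p = 0.0013, and 0.76, SE 0.11, with edgeR adjusted p = 0.00018). The later libraries lay above all 4 libraries of days 0 and 4. Ifitm6 had 0.878 and 0.829 CPM at day 8 and 7.84 and 8.55 CPM at day 12, against 1.23 and 1.17 CPM at day 4, and the rise came after day 8 (day 12 against day 4, log2 fold 2.77, SE 0.22, with edgeR adjusted p = 1.2e-06). Ifitm1 had 146 and 162 CPM at day 8 and 294 and 297 CPM at day 12, against 204 and 192 CPM at day 4. Its groups did not overlap, but neither step passed the test (log2 fold -0.36, edgeR adjusted p = 0.41, and 0.58, edgeR adjusted p = 0.11). In a fit of the 4 libraries alone both were called, with edgeR adjusted p = 0.016 at day 8 and 0.00074 at day 12.

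Other members stood near their day 4 level. Ddx58 had 91.9 and 87.2 CPM at day 8 and 95.3 and 95.1 CPM at day 12, against 90 and 93.8 CPM at day 4. Its log2 fold was -0.04 at day 8 (SE 0.13, with edgeR adjusted p = 0.89) and 0.05 at day 12 (SE 0.13, with edgeR adjusted p = 0.80), and the day 8 libraries overlapped those of day 4 while those of day 12 lay slightly above. Trim25 (0.04), Eif2ak2 (-0.07), Ifi35 (0.02), Dtx3l (0.11), Zbp1 (0.11) and Xaf1 (0.23) likewise had small log2 folds at day 12 against day 4 and were not called. A missed call at 2 libraries a group does not show that levels were equal. The standard error of 0.13 for Ddx58 sets the size of a change that could be seen.

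The number of falls after day 4 rested on few libraries. At day 8 it was 6 without day 4 replicate A, 5 without day 4 replicate B, 5 without day 8 replicate A and 3 without day 8 replicate B. At day 12 it was 6 without day 4 replicate A, 7 without day 4 replicate B and 4 without either day 12 library. Oas1a, Stat2 and Parp9 at day 8 and Oas1a, Oas2, Stat2 and Dhx58 at day 12 were called lower each time, and Tap1 at both times and Ifitm6 at day 12 were called higher each time. Over the same days 6 of 8 neutrophil markers fell and 6 of 6 eosinophil markers rose at day 8 against day 4, and 5 of 8 and 6 of 6 did so at day 12. In the fit of all 16 libraries, 6.78% of all genes rose and 7.16% fell at day 8, and 14.7% and 12.3% at day 12. The part of these markers in the falls and rises was not tested.

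Among the wider lists, 1 block that had mostly risen by day 4 rose further after it. Over all genes 6.78% rose and 7.16% fell at day 8, and 14.7% and 12.3% at day 12. Of 25 genes of MHC class I antigen presentation, 16 rose and 0 fell at day 8 and 18 rose and 0 fell at day 12 against day 4 (edgeR, and 0 fell at an unadjusted p under 0.05 at both times), with a median log2 fold of 0.50 and 0.64. The largest steps were in class Ib genes, H2-Q6 (log2 fold 2.05 at day 12, edgeR adjusted p = 7.1e-08) and H2-Q7 (1.74, edgeR adjusted p = 7.3e-06), whose reads can be shared with near-identical class I genes. Of the 19 receptor, kinase, STAT and feedback genes, 0 rose and 4 fell at day 8 (edgeR, and 0 rose at an unadjusted p under 0.05) and 1 rose and 5 fell at day 12. The falls included the interferon-gamma receptor chain Ifngr2 (log2 fold -1.03 at day 12, edgeR adjusted p = 2.6e-05) and the feedback inhibitor Socs3 (-1.02, edgeR adjusted p = 5.1e-05). Among the 21 sensors and adaptors 0 rose (edgeR, 1 at an unadjusted p under 0.05) and 3 fell at day 12, namely Ikbke (-0.69), Unc93b1 (-0.82) and Myd88 (-0.36), with edgeR adjusted p of 0.00041, 0.0032 and 0.014. The 54 further type I response genes split evenly at day 12, with 8 rises and 8 falls.

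**Figure D3:**
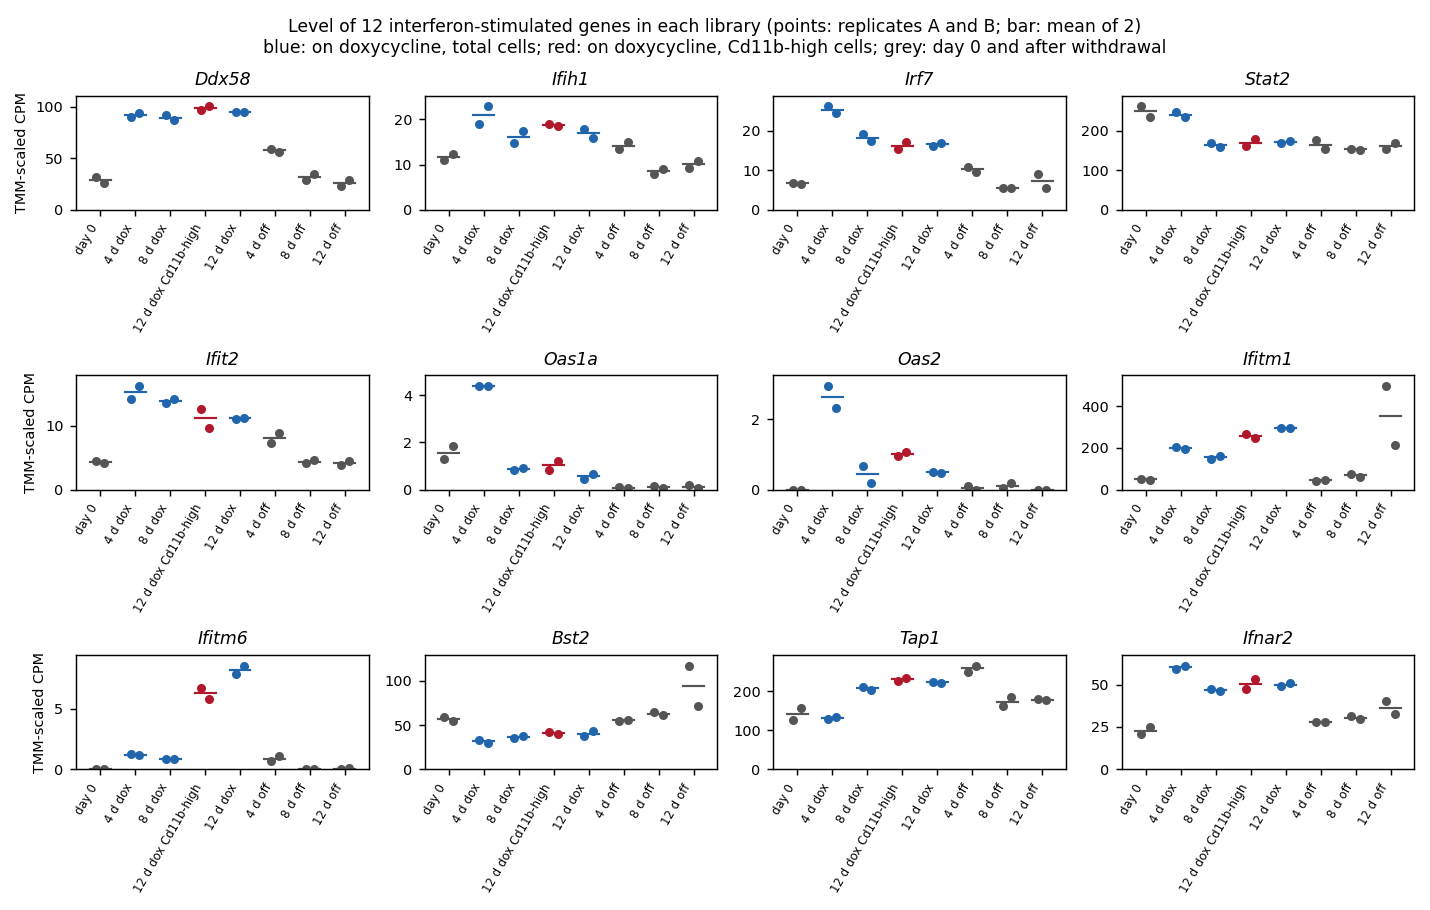
TMM-normalised CPM (y axis, from 0, a scale of its own per gene) of 12 members in each library, with groups along the x axis in the order of the course, points for replicates A and B and a bar for their mean. Blue is doxycycline with total cells, red is the Cd11b-high sort, and grey is day 0 and the times after withdrawal. Ddx58 is flat from 4 to 12 days, Irf7, Stat2, Oas1a and Oas2 step down after 4 days, Tap1 steps up, and Ifitm1 and Bst2 have 1 high library each at 12 days off.

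Cd11b, an integrin of maturing myeloid cells encoded by Itgam, was the marker of the sort at day 12. Of the 37 members, 0 rose and 0 fell in Cd11b-high cells against total cells (edgeR, over all genes 0% rose and 0.0146% fell), and DESeq2 made 0 calls as well. At an unadjusted p under 0.05, 2 members were higher and 0 lower, and the share of all genes under that p was not counted. A fit of the 4 libraries alone called 1 member lower, Ifitm1 (log2 fold -0.21, edgeR adjusted p = 0.022). Ddx58 had 97.5 and 101 CPM in Cd11b-high cells, against 95.3 and 95.1 CPM in total cells (log2 fold 0.06, SE 0.13). The sorted libraries were slightly higher, by less than the standard error. Irf7 had 15.3 and 17.1 CPM in Cd11b-high cells, against 16 and 16.9 CPM in total cells, Isg15 had 4.52 and 3.2 CPM in Cd11b-high cells, against 3.51 and 4.28 CPM in total cells, and both overlapped. The 2 members under that p were genes of few reads: Oas2 had 0.97 and 1.07 CPM in Cd11b-high cells, against 0.502 and 0.48 CPM in total cells, and Oas1a had 0.831 and 1.22 CPM in Cd11b-high cells, against 0.456 and 0.679 CPM in total cells, with no overlap and an edgeR adjusted p = 1 for both. Ifitm6 had 6.74 and 5.83 CPM in Cd11b-high cells, against 7.84 and 8.55 CPM in total cells (log2 fold -0.38, SE 0.19, with edgeR adjusted p = 1).

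After doxycycline was withdrawn many members came down in steps. Time off doxycycline and time in culture rose together here and cannot be told apart. Of the 37 members, 1 rose and 19 fell at 4 days off against day 12 (over all genes 18% rose and 18.8% fell). At 8 days off against 4 days off 0 rose and 12 fell (11.6% and 12.4%), and 1 rose at an unadjusted p under 0.05. At 12 days off against 8 days off 1 rose and 0 fell (1.54% and 2.18%), and 4 fell at an unadjusted p under 0.05. At 12 days off against day 12, 1 rose and 24 fell (32.9% and 32.4%). Spi1 was back at its day 0 level after 4 days (log2 fold -0.02 against day 0, SE 0.15), and the members differed in how far they had followed by then.

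**Figure D4:**
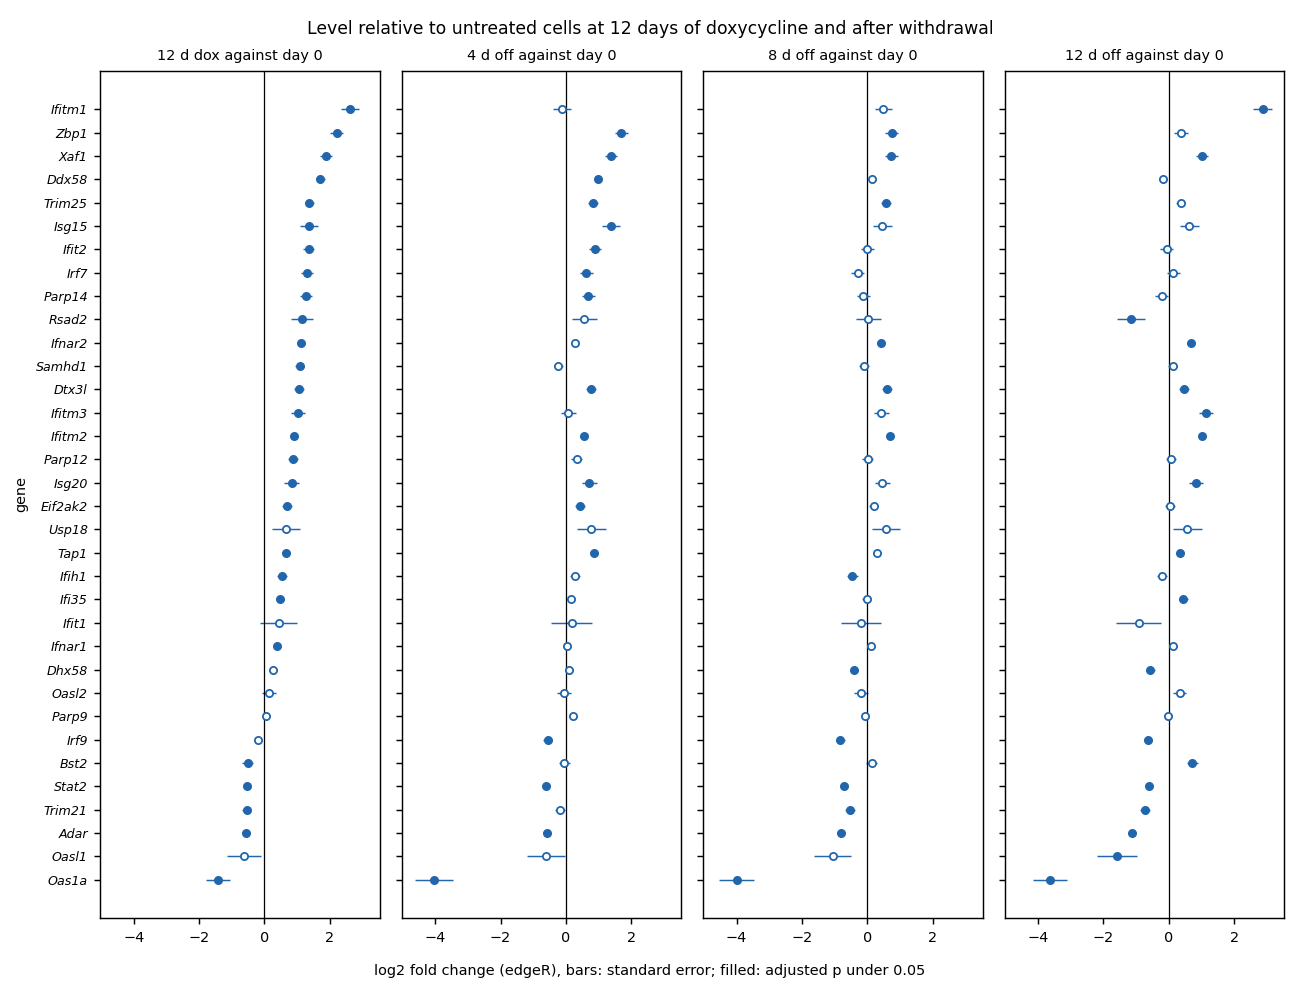
Log2 fold change against day 0 (x axis, edgeR) of 34 members (y axis) at 12 days of doxycycline and at 4, 8 and 12 days after its withdrawal (panels from left to right), with bars for 1 standard error and filled points for adjusted p under 0.05. Oas2, Oas3 and Ifitm6, with 0 to 2 reads at day 0, are not drawn. At 4 days off Ifitm1 and Samhd1 lie at 0 while Zbp1, Xaf1 and Isg15 lie above 1, and at 12 days off Ifitm1 is again above 2.

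Ifitm1, Samhd1 and Ifnar2 fell steeply by 4 days off, to levels not called apart from day 0. Ifitm1 had 41.6 and 47.3 CPM at 4 days off, against 294 and 297 CPM at day 12, a log2 fold of -2.73 (SE 0.28, with edgeR adjusted p = 7.5e-06). Against the 49.2 and 47.5 CPM of day 0 that was a difference below the standard error (log2 fold -0.12, SE 0.27, with edgeR adjusted p = 0.75). Samhd1 had 27.2 and 30.4 CPM at 4 days off, against 72.3 and 70.3 CPM at day 12 (log2 fold -1.31, SE 0.14, with edgeR adjusted p = 5.2e-06). Ifnar2 had 27.8 and 27.7 CPM at 4 days off, against 48.9 and 50.7 CPM at day 12 (log2 fold -0.84, SE 0.12, with edgeR adjusted p = 7.9e-05), and Ifitm6 had 0.652 and 1.07 CPM at 4 days off, against 7.84 and 8.55 CPM at day 12 (log2 fold -3.26, SE 0.25, with edgeR adjusted p = 4.2e-07). Against day 0, neither Samhd1 (log2 fold -0.23, edgeR adjusted p = 0.21) nor Ifnar2 (0.28, edgeR adjusted p = 0.084) passed the test at 4 days off.

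Other members were still above day 0 when Spi1 was not. At 4 days off against day 0, 14 members were higher and 4 lower (over all genes 18.8% and 19.1%). Zbp1 had 6.3 and 5.62 CPM at 4 days off, against 1.58 and 2.14 CPM at day 0 (log2 fold 1.70, SE 0.20, with edgeR adjusted p = 1.4e-05). Xaf1 had 11.6 and 17.2 CPM at 4 days off, against 4.78 and 6.27 CPM at day 0 (log2 fold 1.39, SE 0.19, with edgeR adjusted p = 7.8e-05), and Isg15 had 4.24 and 3.6 CPM at 4 days off, against 1.52 and 1.48 CPM at day 0 (log2 fold 1.38, SE 0.28, with edgeR adjusted p = 0.0013). All 3 were clear of their day 0 libraries, and Isg15 was at the level of day 12 (log2 fold 0.01). Ddx58 lay between, with 59.2 and 56.2 CPM at 4 days off, below its 95.3 and 95.1 CPM at day 12 (log2 fold -0.72, SE 0.13, with edgeR adjusted p = 0.00055) and above day 0 (log2 fold 0.99, SE 0.13, with edgeR adjusted p = 5.6e-05). Tap1 had 250 and 265 CPM at 4 days off, higher than in any other library of the course, against 126 and 157 CPM at day 0 (log2 fold 0.87, SE 0.11, with edgeR adjusted p = 3.6e-05). The endosomal receptor gene Tlr7, outside the member list, also held, with 7.93 and 9.09 CPM at 4 days off, against 1.63 and 1.84 CPM at day 0 (log2 fold 2.30, edgeR adjusted p = 4.6e-06).

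The number of members below day 12 at 4 days off was 9 without either day 12 library, 8 without replicate A of that time and 15 without replicate B, and 13 when libraries were scaled by library size alone. Ddx58, Ifitm1, Ifitm6, Ifnar2 and Samhd1 were called lower each time a library was left out. With library size alone the all-gene median of this comparison was 0.15 in place of 0.04, and the split over all genes 3480 higher and 1906 lower in place of 2459 and 2570. The 1 riser, Bst2, had 54.3 and 56.1 CPM at 4 days off, against 37.1 and 42.8 CPM at day 12 (log2 fold 0.47, edgeR adjusted p = 0.042), and was not called when any 1 of the 4 libraries was left out. Against day 0, 10 of the 14 higher members held without each library in turn, among them Zbp1, Xaf1, Isg15, Ddx58, Ifit2, Trim25 and Tap1.

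By 8 days off these members had come down. Ddx58 had 29.3 and 34.7 CPM at 8 days off, against 59.2 and 56.2 CPM at 4 days off (log2 fold -0.85, SE 0.13, with edgeR adjusted p = 0.00035), and its log2 fold against day 0 was 0.14 (SE 0.13, with edgeR adjusted p = 0.44). Zbp1 (log2 fold -0.96, edgeR adjusted p = 0.0012), Isg15 (-0.94, edgeR adjusted p = 0.014), Irf7 (-0.92, edgeR adjusted p = 0.0032) and Ifit2 (-0.89, edgeR adjusted p = 0.0021) fell over the same 4 days. At 8 days off against day 0, 6 members were higher and 7 lower (over all genes 16.2% and 16.9%). Zbp1 (log2 fold 0.74, edgeR adjusted p = 0.012) and Xaf1 (0.73, edgeR adjusted p = 0.011) were among the 6.

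At 12 days off, the end of the course, the shares of members called apart from day 0 were near those over all genes. Of the 37, 10 were higher and 8 lower than at day 0 (over all genes 21.6% and 22%), with Ifitm1, Ifitm2, Ifitm3 and Bst2 among the higher and Oas1a, Adar, Stat2 and Irf9 among the lower. The median log2 fold of the members was 0.12, against 0.00 for all genes. The 2 libraries of this time differed more than those of any other group: the chi-square of their counts per degree of freedom was 73.8, against 2.98 to 19.0 in the other groups. Without replicate A or B the counts were 10 or 11 higher and 7 or 6 lower.

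Ifitm1 ended above its level on doxycycline in 1 library. It had 497 and 211 CPM at 12 days off, against 49.2 and 47.5 CPM at day 0 (log2 fold 2.87, SE 0.28, with edgeR adjusted p = 4.1e-06), and the log2 fold was 2.12 without replicate A of that time. Against the 294 and 297 CPM of day 12, replicate A was higher and replicate B lower (log2 fold 0.26, edgeR adjusted p = 0.39). Between 8 and 12 days off Ifitm1 was the 1 member that rose. Bst2 had 117 and 71.1 CPM at 12 days off, against 58.9 and 55.0 CPM at day 0 (log2 fold 0.72, SE 0.17, with edgeR adjusted p = 0.0029), and was the 1 member above day 12 (log2 fold 1.23, SE 0.17, with edgeR adjusted p = 1.5e-05). Both libraries lay above day 0 in each gene, with replicate A the higher. Ifitm3 had 21.6 and 13.2 CPM at 12 days off, against 6.41 and 9.52 CPM at day 0 (log2 fold 1.14, SE 0.22, with edgeR adjusted p = 0.00082). Ifitm2 had 333 and 266 CPM at 12 days off, against 137 and 159 CPM at day 0 (log2 fold 1.02, SE 0.12, with edgeR adjusted p = 9e-06).

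Of the 8 members that ended below day 0, Adar, Stat2, Trim21 and Oas1a were already below it at day 12. Adar had 55.0 and 63.5 CPM at 12 days off, against 144 and 117 CPM at day 0 (log2 fold -1.14, SE 0.11, with edgeR adjusted p = 2.4e-06), after 104 and 105 CPM at day 4 and 87.6 and 89.0 CPM at day 12. Stat2 had 155 and 169 CPM at 12 days off, against 263 and 235 CPM at day 0 (log2 fold -0.62, SE 0.11, with edgeR adjusted p = 0.0003), and Irf9 had 15.1 and 16.5 CPM at 12 days off, against 26.7 and 22.3 CPM at day 0 (log2 fold -0.63, SE 0.13, with edgeR adjusted p = 0.0015). Neither gene's groups overlapped. Oas1a had 0.196 and 0.0456 CPM at 12 days off, against 1.3 and 1.84 CPM at day 0. Its log2 fold of -3.64 (SE 0.51, with edgeR adjusted p = 5.6e-05) was -4.90 when replicate A of that time was left out and -2.86 when B was. Oas1a was already at 3 reads at 4 days off, against 49 at day 0, a ratio of 0.0571 with an exact 95% counting interval of 0.0114 to 0.177. Trim21 (log2 fold -0.73, edgeR adjusted p = 0.001) and Dhx58 (-0.57, edgeR adjusted p = 0.0033) were lower too. The calls of Rsad2 (-1.15, edgeR adjusted p = 0.044) and Oasl1 (-1.58, edgeR adjusted p = 0.049) rested on day 0 replicate A, without which the log2 folds were -0.16 and -0.63 and not called.

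Ddx58, Ifih1, Irf7, Isg15 and Zbp1 did not pass the test against day 0 at this time. Ddx58 had 22.6 and 28.9 CPM at 12 days off, against 32.2 and 25.7 CPM at day 0 (log2 fold -0.17, SE 0.13, with edgeR adjusted p = 0.33), and the groups overlapped. Against day 12 it had fallen by 1.88 on the log2 scale (SE 0.13, with edgeR adjusted p = 1.9e-08), Zbp1 by 1.83 (SE 0.17, with edgeR adjusted p = 3.7e-07), and Parp14 by 1.5 (SE 0.19, with edgeR adjusted p = 7.5e-06). Oas2 had 0 reads at 12 days off and 23 at day 12, at least 6.91-fold lower, and Ifitm6 had 3 reads against 386, a ratio of 0.00863 with an exact 95% counting interval of 0.00177 to 0.0254. In a fit of the 4 libraries alone, 4 members (Ifitm1, Ifitm2, Ifitm3 and Xaf1) were higher and 3 (Oas1a, Adar and Trim21) lower than at day 0. Neutrophil markers summed to 6.78 and 6.8 CPM at 12 days off, against 13.8 and 24.0 CPM at day 0. Of these, 2 of 8 were lower (over all genes 22%). Eosinophil markers summed to 4200 and 4280 CPM at 12 days off, against 5170 and 2080 CPM at day 0. Their part in the members' values was not tested.

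Most antigen presentation genes were still above day 0 at this time. Of the 25 MHC class I genes, 17 were higher and 1 lower at 12 days off than at day 0 (median log2 fold 0.70), where H2-Q6 had 54.7 and 52.6 CPM, against 4.62 and 6.12 CPM at day 0. Of the 21 sensors and adaptors 2 were higher and 10 lower, with the kinase gene Ikbke at a log2 fold of -1.39 (edgeR adjusted p = 5e-07). Among the 19 receptor, kinase, STAT and feedback genes 8 were higher and 4 lower, and the feedback inhibitor Socs1 had 48.9 and 36.6 CPM at 12 days off, against 20.3 and 12.8 CPM at day 0 (log2 fold 1.35, edgeR adjusted p = 3.8e-05). The 54 further type I response genes held 9 higher and 17 lower, and the 15 interferon-gamma response genes held 1 of each, Igtp higher and Irgm1 lower. Over all genes 21.6% were higher and 22% lower. Whether these lists differ from the members or from all genes was not tested.

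Set on a scale per length (TPM, counts divided by gene length and scaled to 1 total per library), the members spanned a wide range at day 4. Ifitm2 was at 905 ± 50.6 TPM and Ifitm1 at 570 ± 20 TPM (SD, n = 2), followed by Stat2 at 133 ± 4.18 TPM, Tap1 at 108 ± 4.94 TPM and Bst2 at 99.5 ± 6.36 TPM. Ifitm3 (81.0 ± 3.88 TPM), Ifi35 (79.6 ± 2.35 TPM) and Trim25 (76.3 ± 2.76 TPM) came next, with neighbours apart by less than the sum of their SDs, as were Ifnar2 (46.0 ± 1.41 TPM) and Ddx58 (45.1 ± 1.69 TPM). At the low end were Rsad2 at 2.59 ± 0.128 TPM, Oas2 at 1.66 ± 0.261 TPM and Oas3 at 0.935 ± 0.24 TPM.

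Several members sit side by side in the genome, in GRCm38 coordinates. Ifitm1 (chr7:140967429-140969827), Ifitm2 (chr7:140954837-140959686), Ifitm3 (chr7:141009590-141010744) and Ifitm6 (chr7:141015812-141016892) form 1 cluster, in which Ifitm6 was highest at day 12 and at 0 reads at day 0. Oas1a (chr5:120896256-120907544), Oas2 (chr5:120730333-120749886) and Oas3 (chr5:120753098-120777684) form another, where Oas1a and Oas2 fell after day 4 and Oas3 did not pass the test. Parp9 (chr16:35938470-35972621) and Dtx3l (chr16:35926515-35939027) are neighbours on opposite strands. At day 12 against day 4, Parp9 was called lower and Dtx3l was at 0.11. Reads of the IFITM, OAS and IFIT families can be split between near-identical copies, and exons of Parp9 and Dtx3l, Adar and Chrnb2, Irf7 and Phrf1, Irf9 and Rnf31, and Tap1 and Psmb9 overlap. The sources used here do not say whether the counting used strand, so these values are uncertain to that extent.

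The genes most like Ddx58 in Pearson correlation of log2 CPM over the 8 group means were Itgam, which encodes Cd11b (r = 0.999), Timp2, Ceacam1, Hipk3, Dnm2, Tmed8, Sh3bp1, Coro1a, Clec1b and Vasp (r from 0.995 to 0.997). The nearest member, Eif2ak2 (r = 0.991), had rank 43 among all genes, followed by Ifit2 (r = 0.969) and Parp14 (r = 0.968). Bst2 ran opposite to it (r = -0.897), and Stat2 had r = -0.016. These values describe 8 points that share libraries and scaling. Plasmacytoid dendritic cells are the cell type known for secreting interferon. Of 8 markers listed for them, Cox6a2, Tcf4, Runx2 and Spib were analysed. Siglech, Ccr9, Pacsin1 and Klk1 were not found by symbol among the genes with read counts. The 4 analysed summed to between 168 and 320 CPM in every library. Of these, 3 of 4 were lower at day 4 than at day 0 (over all genes 31%). That sum does not show that such cells were present.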

How the data were processed

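RNA-seq was made from FACS-sorted AML246 cells in 16 libraries, 2 for each of 8 titled groups. Per the file headers, the authors deposited 1 raw count and 1 length for each Entrez gene and library. The submitters' processing notes list featureCounts, edgeR and limma and the build mm10; no aligner is named in the sources used here. A gene table on GRCm38 gave symbols to 13216 of the 13652 genes. The members and lists were chosen with earlier results of these data known.

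Counts were TMM-normalised and tested in 1 fit of 16 libraries with the two-sided quasi-likelihood test (R 4.3.3, limma 3.58.1, edgeR 4.0.16), using 8 residual degrees of freedom, a common coefficient of variation of 10.9% and Benjamini-Hochberg adjustment over all genes within a comparison (threshold 0.05). The filter filterByExpr removed 0 genes. Standard errors were obtained by dividing the absolute log2 fold by the root of the F statistic. Depth was 12962801 to 26509803 counts. Intervals and floors cover counting error only. Shares over all genes are for an adjusted p under 0.05, and none was counted at an unadjusted p.

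The naming rule took called members with a mean of at least 1 CPM, at most 20 by size of fold, 8 uncalled members with the highest CPM, 4 genes of each pathway list with the lowest adjusted p, and 9 genes open in every comparison (the RNA sensors Ddx58 and Ifih1, Isg15, Irf7, Irf9, Stat2, Ifnar1, Ifnar2 and Spi1). Other members were named after their values were seen. Promoters and motif searches used RefSeq sequences on GRCm38.p6. Other settings tried were DESeq2 1.42.0, RLE factors, scaling by library totals, no filter, fits restricted to the 4 libraries of a comparison, a block for the replicate letter and omission of each library. A filter at a mean of 1 CPM and the comparisons of day 12 and 4 days off with day 0 and of 4 days off with day 12 were added to these after seeing the data. The script was tested on simulated data.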

Additional observations from a re-analysis of the deposited data

How the results depend on the processing

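Of the member counts in 9 comparisons, those not listed here stayed within 1.5 times of their value under RLE factors, library size alone, no filter, DESeq2, a filter at a mean of 1 CPM (added after seeing the data) and the fit of the 4 libraries. The replicate letters were not shown to pair the libraries, since 8 of 28 pairs of groups had correlations of their A and B difference over 0.1 (from -0.0907 to 0.264). With the replicate block the counts at 12 days off against day 0 were 11 higher and 7 lower, since Trim25 was gained (log2 fold 0.35, edgeR adjusted p = 0.033) and Oasl1 lost (edgeR adjusted p = 0.054), and no other member count changed. In the fit of the 4 libraries alone, 5 members were higher at day 12 than at day 4, 1 was lower in Cd11b-high than in total cells, 4 were higher and 3 lower at 12 days off than at day 0, and 3 were higher at 4 days off than at day 12. The last count was 4 with library size alone and 0 with RLE factors and with DESeq2. Without 1 library in turn, 1 to 2 members were lower at day 4 than at day 0, 3 to 6 at day 8 than at day 4, and 4 to 7 at day 12 than at day 4, while 8 to 15 were lower and 0 higher at 4 days off than at day 12, and 1 to 4 were higher at 12 days off than at day 12. Ifitm1 at 12 days off against day 12 had a log2 fold of 0.26, which turned to -0.49 without replicate A of 12 days off (edgeR adjusted p = 0.0014) and was 0.78 without replicate B. The cause was not tested, beyond the smaller number of libraries in these fits. Over all members and settings, 3403 values kept their side of the threshold, 174 lost the call and 46 gained it in the same direction. A further 1 gained it in the opposite direction. The direction of values uncalled in both fits was not compared. Library size alone moved the median log2 fold of all genes by over 0.1 at day 12 against day 4 (to -0.14), at 12 days off against day 12 (to 0.11), at 4 days off against day 12 (to 0.15) and at day 12 against day 0 (to -0.20), where the calls over all genes became 1272 higher and 2797 lower, 5050 and 3777, 3480 and 1906, and 3453 and 5401. Genes with few reads (Oas1a, Oas2, Oas3, Ifit1, Oasl1, Ifitm6 at day 0) are limited by depth.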
